A study of Saccharomyces cerevisiae with 90 samples.

Results

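The nuclear genes of the mitochondrial respiratory chain and ATP synthase were followed across every group of a study of Saccharomyces cerevisiae, the budding yeast, grown in liquid and on solid substrates. The members were chosen by name: symbols that begin with QCR, COX, ATP or SDH and a digit, plus COR1, RIP1, CYT1, NDI1, NDE1, NDE2, INH1, STF1 and STF2, without COX5A and COX5B, which are isoforms of a single subunit used with and without oxygen. The rule took 61 genes, of which 59 were measured among 5449 genes tested. COX26 and SDH9 were not analysed here, and neither were the mitochondrially encoded subunits. By role the 59 genes divide into 4 subunits of complex II, 9 of complex III, 7 of complex IV, 13 of ATP synthase, 3 NADH dehydrogenases, 3 inhibitors or stabilizers of the ATPase and 20 assembly or other factors.

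The respiratory chain passes electrons from NADH and succinate to oxygen and pumps protons across the inner mitochondrial membrane, and ATP synthase uses the proton gradient to make ATP. Budding yeast has no proton-pumping complex I and oxidizes NADH with single-protein dehydrogenases, NDI1 inside the membrane and NDE1 and NDE2 facing outward. Many of these genes are known to be repressed by glucose and activated by the HAP2/3/4/5 transcription factor complex when glucose is low or another carbon source is used. The inhibitor INH1 and its partners STF1 and STF2 act on ATP synthase when it would run backwards and break down ATP.

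Affymetrix arrays of 90 samples form 29 groups of 3, with the one exception of 6 arrays for the 0 h sample of wild-type from SD agar. Besides wild-type there were Kss1K42R (a MAP kinase with a substitution), tec1 knockout, msb2 knockout, flo11 knockout, PGAL1-FLO11, and strains labelled by a plasmid: pRS313, pRS313-STE11-4, pRS316 and pRS316-MSB2* (called STE11-4 and MSB2* here). The 6 h groups covered agar and liquid in SD for all 10 strains, gelatin in SD for wild-type, agar and liquid in SLAD for wild-type, and agar and liquid in SG for wild-type and PGAL1-FLO11. Wild-type was also taken at 0 h from SD agar and SD liquid. The titles of the SD liquid arrays of pRS313 and STE11-4, and of wild-type SD liquid at 0 h, carry a lower-case b. The titles of the groups set against them here carry none, and the labels do not give its meaning. The design text gives the aim as finding the genomic response to touch. The nutrient names are the labels' own, and the labels do not state whether the arrays of a group came from separate cultures, and the p-values therefore reflect only how far these arrays spread, which may be technical.

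Values are log2 signals as deposited, and changes are differences of group means on the log2 scale with the standard error of limma's fit over all arrays. The words rose and fell are kept for genes whose limma adjusted p (Benjamini-Hochberg over all 5449 genes) was under 0.05, at any size. The targeted genes followed their labels in the knockouts: TEC1 read 5.67 ± 0.04 (SD, n = 3) in tec1 knockout on SD agar, and MSB2 read 4.99 ± 0.21 in msb2 knockout, both near the background limit of 5.72 to 6.33. FLO11 read 6.77 ± 0.26 in flo11 knockout. GAL1, the galactokinase gene, read 15.27 ± 0.04 in wild-type SG agar and 7.73 ± 0.14 in wild-type SD agar. FLO11 in the group labelled PGAL1-FLO11 read 14.50 ± 0.11 on SD agar and 10.64 ± 0.38 in SD liquid against 14.81 ± 0.06 and 10.41 ± 0.16 in wild-type, so the SD arrays of that label did not show FLO11 following GAL1. URA3, the marker of pRS316, read 13.44 ± 0.17 in pRS316 and 4.40 ± 0.14 in msb2 knockout on SD agar, so pRS316 matches msb2 knockout neither in plasmid nor in this marker. Arrays lay a median of 0.173 log2 (root mean square over genes) from the others of their group, and those farthest were wild-type gelatin A (0.893), gelatin B (0.501), wild-type SG liquid C (0.470), gelatin C (0.445) and STE11-4 SD liquid C (0.437). Where leaving out one of these arrays ended the call of a named member or moved a count by more than 1.5 times, the array is named.

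The members were among the bright genes of the array. Their mean signals had a median of 13.36 against 10.71 for all genes, and 35 of 59 lay above 13. ATP2, the catalytic beta subunit of ATP synthase, was above the array's 99th percentile (14.87 to 14.97) on 29 arrays, ATP1, the alpha subunit, on 19, and QCR7 on 1, so changes of these genes may be larger than measured. Across the 29 group means the members ranged by a median of 1.37 log2, against 1.28 for all genes. The 35 bright members ranged by a median of 1.15 and the other 24 by 1.99.

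Group means of most members moved together. The correlation of a member's 29 group means with the mean of the other members had a median of 0.83, and it was over 0.8 for 34 members, over 0.5 for 51 and under 0 for 0. These correlations describe shared arrays and shared groups, several of which differ by nutrient alone, and carry no test. No such value is given here for other genes, so they do not set the members apart. By role the median correlation was 0.90 in complex II, 0.89 in complex III, 0.90 in complex IV, 0.84 in ATP synthase and 0.54 in assembly or other factors. The least correlated members were COX18 (0.03), which inserts a core subunit of complex IV into the membrane, COX15 (0.05) and COX10 (0.20), which make the heme A of complex IV, ATP22 (0.16), needed to make a mitochondrially encoded subunit of ATP synthase, and COX19 (0.23), a small cysteine-rich assembly protein. The widest ranges of group means were 5.13 for STF2, 4.94 for SDH6, which protects the iron-sulfur subunit of complex II while it matures, 4.24 for STF1, 4.14 for NDE2 and 3.25 for COX17, a copper chaperone for complex IV. The narrowest were 0.54 for ATP1, 0.56 for COX8, 0.60 for QCR9, 0.66 for ATP15 and 0.67 for QCR8, all structural subunits with bright signals.

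**Figure D1:**
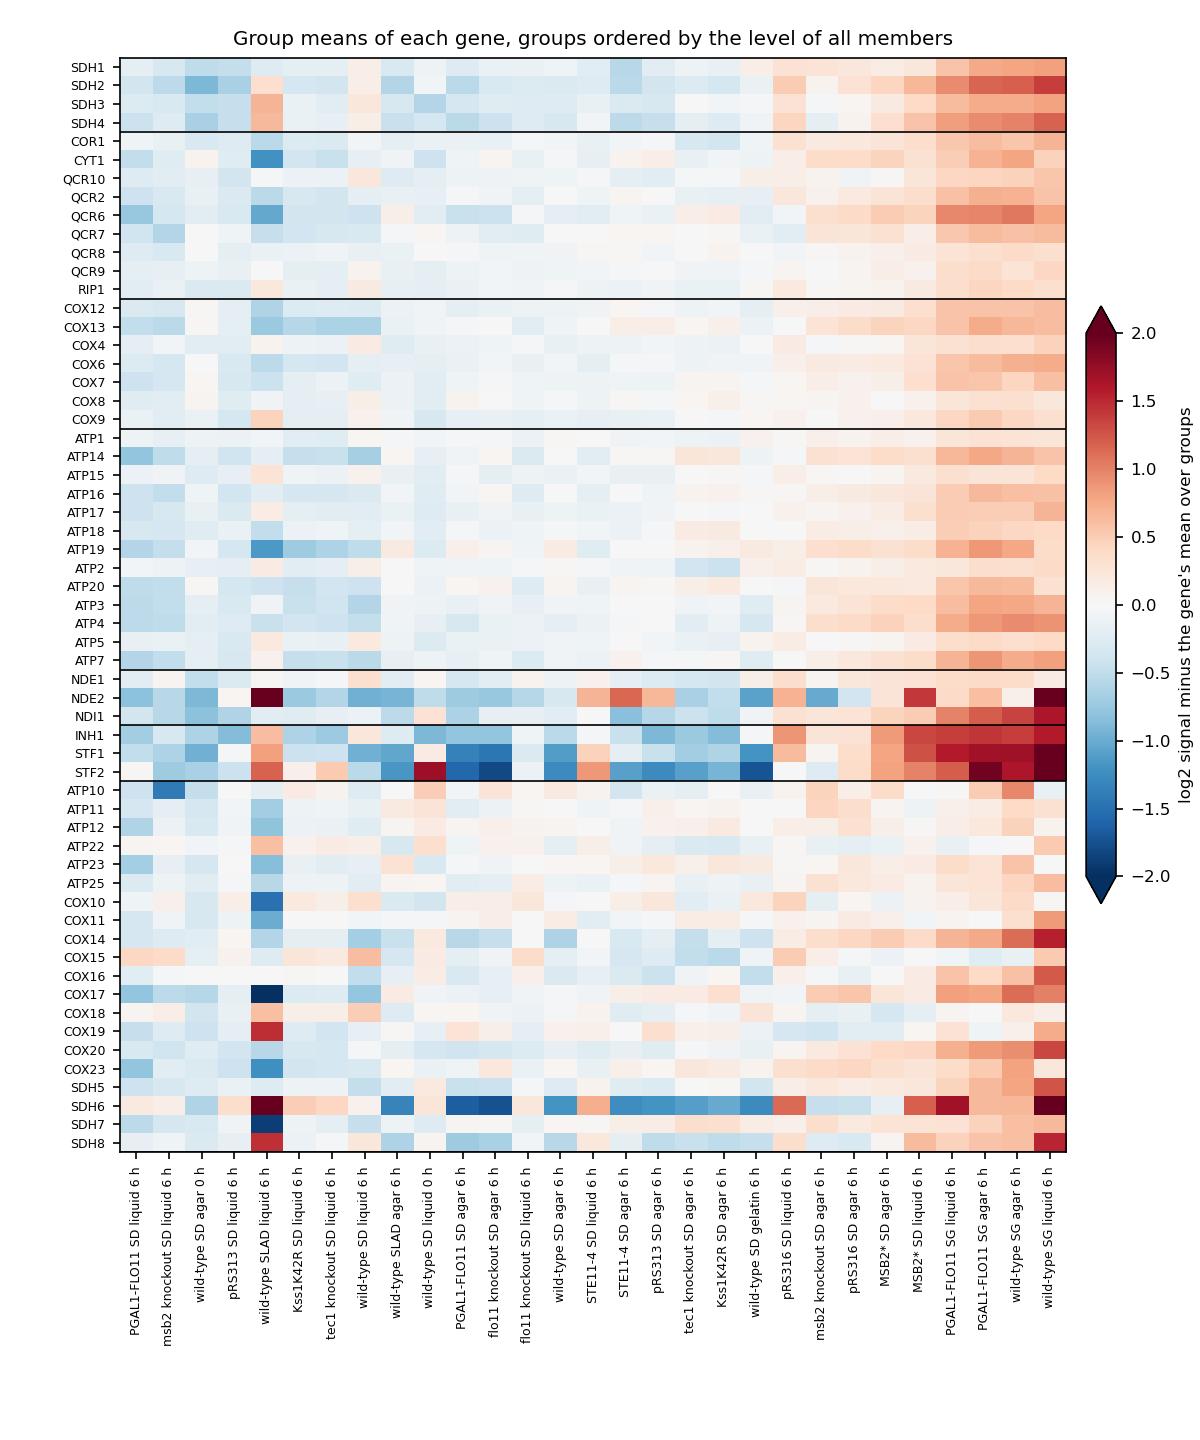
Colour map of the group means of the 59 genes (rows, in blocks from top to bottom: complex II, complex III, complex IV, ATP synthase, NADH dehydrogenases, ATPase inhibitor and stabilizers, assembly or other factors) in the 29 groups (columns, ordered by the level of all members), as log2 signal minus the gene's mean over groups, with colours saturating at 2 in both directions. The 4 SG groups at the right are red in nearly every row, and wild-type SLAD liquid mixes strong reds and blues within the last block.

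To place each array on one scale, its level was taken as the median over the 59 genes of the signal minus the gene's mean over groups. The 4 SG groups had mean levels of 0.50 ± 0.05 (PGAL1-FLO11 liquid), 0.57 ± 0.04 (PGAL1-FLO11 agar), 0.58 ± 0.01 (wild-type agar) and 0.60 ± 0.03 (wild-type liquid), SD over 3 arrays. Every SG array was above every array of the other groups. MSB2* liquid (0.26 ± 0.04), MSB2* agar (0.19 ± 0.02), pRS316 agar (0.16 ± 0.04), msb2 knockout agar (0.11 ± 0.12) and pRS316 liquid (0.10 ± 0.04) followed. All other SD and SLAD groups had means below 0, down to -0.23 ± 0.03 in wild-type SD agar at 0 h (n = 6), -0.27 ± 0.01 in msb2 knockout liquid and -0.32 ± 0.10 in PGAL1-FLO11 SD liquid, and neighbours in that lower part of the order overlapped in many cases.

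**Figure D2:**
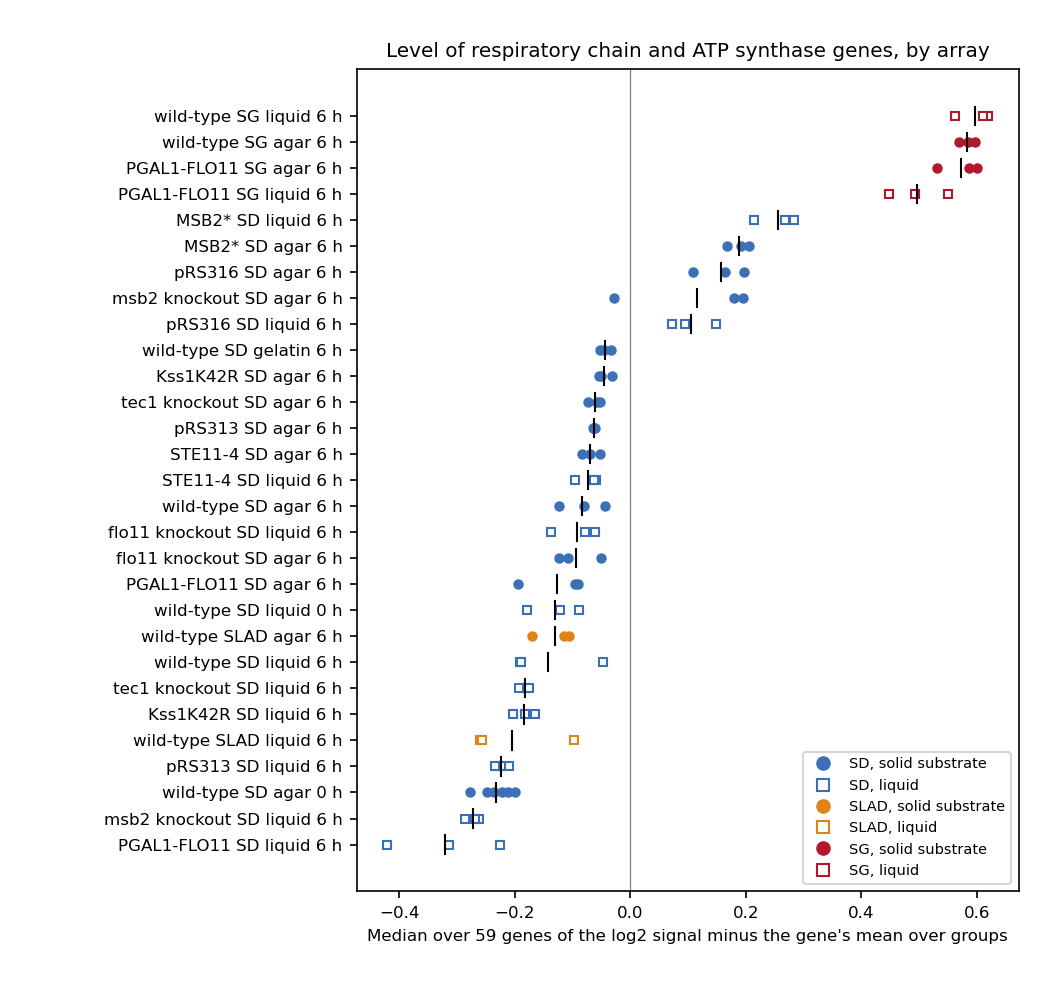
Level of the 59 genes on each of the 90 arrays (points; filled circles for solid substrates, open squares for liquid; colour by nutrient) with the mean of each group as a black bar, in log2 units relative to each gene's mean over groups. The SG arrays sit from 0.45 to 0.62, and among SD groups only those of pRS316, MSB2* and msb2 knockout agar have a mean above 0.

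SG was set against SD within each strain and substrate, which gives 4 comparisons that share no array. In wild-type on agar limma called 54 members as having risen and 0 as having fallen (0 also at an unadjusted p), while 5 did not pass, against 34.9% of all genes higher and 27.6% lower. In wild-type liquid 51 rose and 2 fell, against 43.2% and 34.9% (51 and 0 without wild-type SG liquid C). In PGAL1-FLO11 on agar 51 rose and 1 fell, against 36.3% and 28.2%, and in liquid 54 rose and 2 fell, against 31.4% and 25.4%. The median changes of the members were 0.60, 0.84, 0.71 and 0.86 in that order, while the medians over all genes lay between 0.05 and 0.09. In all 4 comparisons 47 of 59 members rose, against 18.4% of all genes, and 5 members fell in 1 of the 4 each. Since the labels of the PGAL1-FLO11 SD arrays are in doubt, the wild-type comparisons are to be read alone. The titles of the wild-type SD and SG arrays differ in form, and any effect of this was not tested.

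**Figure D3:**
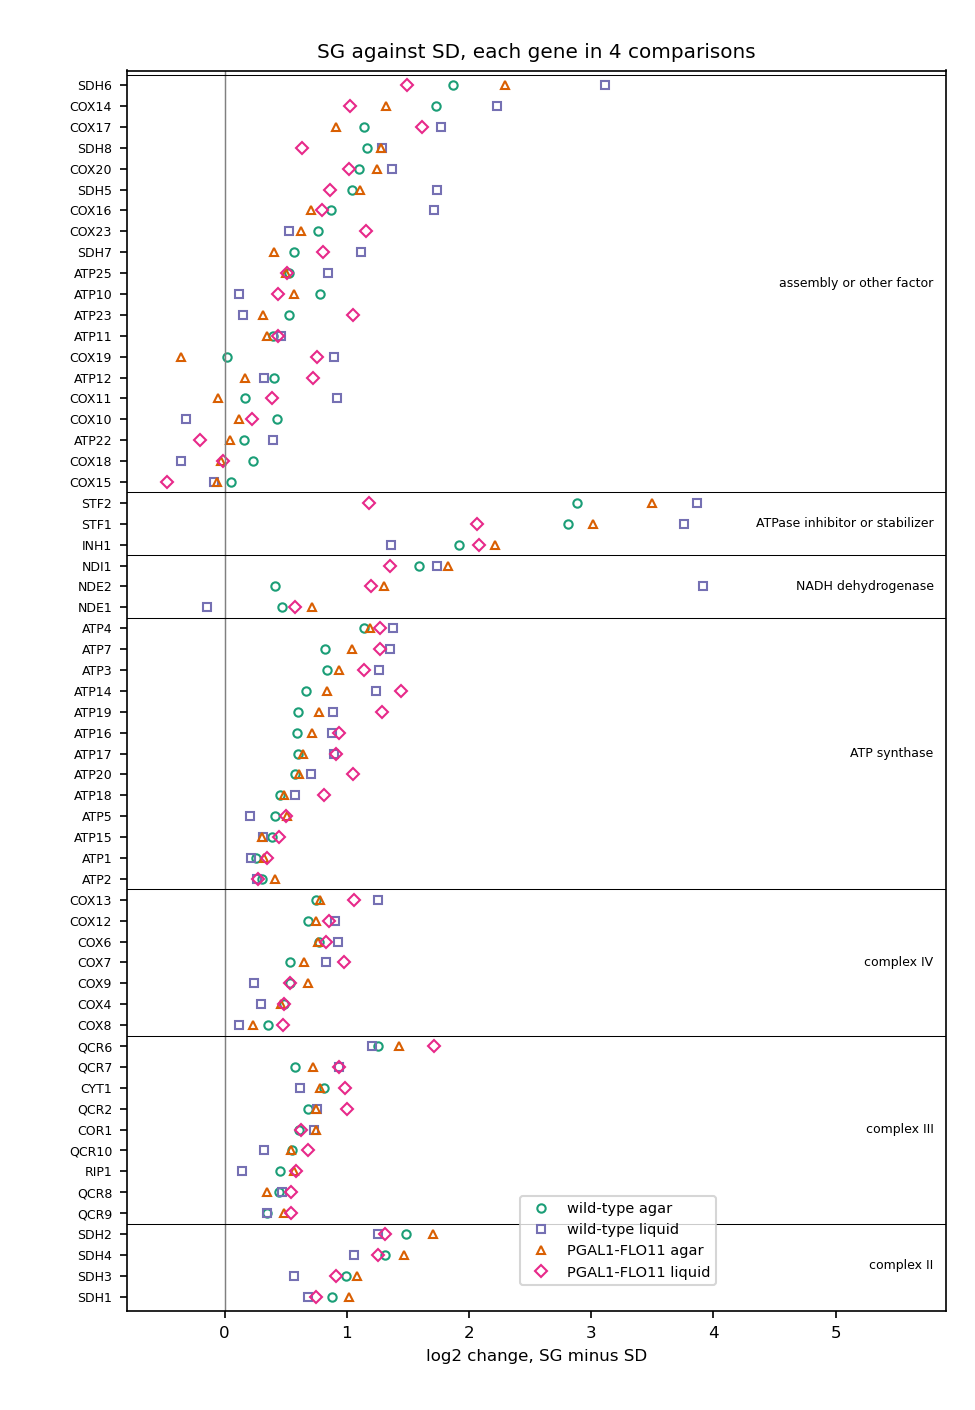
Change in log2 signal from SD to SG (x axis) of each of the 59 genes (rows, in blocks by role) in 4 comparisons: wild-type agar, wild-type liquid, PGAL1-FLO11 agar and PGAL1-FLO11 liquid (marker shapes). All markers of the structural subunits lie to the right of 0, the ATPase inhibitor and its stabilizers lie farthest right, with SDH6 and, in wild-type liquid, NDE2, and COX15, COX18, ATP22 and COX10 scatter around 0.

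All 4 complex II genes rose in all 4 SG comparisons, and the median gene had a median change of 1.12. SDH2, the iron-sulfur subunit of succinate dehydrogenase, read 13.08, 13.06 and 13.11 on wild-type SD agar arrays and 14.42, 14.56 and 14.72 on SG agar arrays. In wild-type liquid it read 13.47, 13.45 and 13.58 in SD and 14.85, 14.77 and 14.65 in SG. The SD and SG arrays did not overlap on either substrate, with changes of 1.48 ± 0.12 (limma adjusted p = 2.71e-16) and 1.26 ± 0.12. SDH1, the flavoprotein subunit, had the smallest change of the 4 on agar, 0.88 ± 0.11 in wild-type and 1.02 ± 0.11 in PGAL1-FLO11.

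Complex III and complex IV subunits rose by less in measured signal. Bright members ranged less across the groups, and the part of signal level in this order of roles was not tested. Of the 9 complex III genes 8 rose in all 4 comparisons and RIP1, the Rieske iron-sulfur protein, in 3, with 0.14 ± 0.07 in wild-type liquid. QCR6, an acidic subunit next to cytochrome c1, changed most: it read 12.80, 12.98 and 12.95 on wild-type SD agar and 14.21, 14.11 and 14.18 on SG agar. In PGAL1-FLO11 liquid it read 12.22, 12.26 and 12.57 in SD and 14.20, 14.05 and 13.95 in SG. These groups are separated by more than the spread of their arrays, with changes of 1.25 ± 0.17 (limma adjusted p = 5.88e-09) and 1.72 ± 0.17 (limma adjusted p = 3.91e-13). Of the 7 complex IV genes 6 rose in all 4 comparisons and COX8 in 3. COX13, a subunit at the edge of the complex, changed by 1.25 ± 0.12 in wild-type liquid, 0.78 ± 0.12 in PGAL1-FLO11 on agar and 1.06 ± 0.12 in PGAL1-FLO11 liquid.

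All 13 ATP synthase subunits rose in all 4 comparisons, with median changes per gene from 0.29 to 1.23. ATP4, a subunit of the peripheral stalk, read 13.45, 13.55 and 13.61 on wild-type SD agar and 14.68, 14.64 and 14.72 on SG agar. In wild-type liquid it read 13.31, 13.31 and 13.16 in SD and 14.66, 14.50 and 14.76 in SG. No SD array reached an SG array, and the changes were 1.14 ± 0.11 (limma adjusted p = 1.05e-14) and 1.38 ± 0.11. ATP14, another peripheral stalk subunit, changed by 1.44 ± 0.09 in PGAL1-FLO11 liquid. ATP1 and ATP2, which lie at the top of the array range, changed by 0.22 to 0.41.

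The ATPase inhibitor and its stabilizers rose in all 4 SG comparisons, and the median gene had a median change of 2.91. INH1, which blocks ATP breakdown by the enzyme, read 12.22, 12.36 and 12.44 on wild-type SD agar and 14.22, 14.27 and 14.29 on SG agar, a change of 1.92 ± 0.11 (limma adjusted p = 3.1e-23). STF1, a protein related to INH1 that stabilizes the inhibited enzyme, read 10.06, 10.13 and 10.28 in SD and 12.90, 12.96 and 13.05 in SG on wild-type agar. STF2, the other stabilizing factor, read 9.70, 9.83 and 10.33 in SD and 12.31, 12.90 and 13.31 in SG on the same substrate. For each of the 3 genes every SG array of wild-type agar was above every SD array. In wild-type liquid STF1 changed by 3.76 ± 0.20 and STF2 by 3.87 ± 0.30, and in PGAL1-FLO11 liquid by 2.07 ± 0.20 and 1.18 ± 0.30.

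The NADH dehydrogenases moved unequally. NDI1, the internal enzyme that feeds the chain from the matrix, read 12.12, 12.17 and 12.29 on wild-type SD agar and 13.72, 13.87 and 13.77 on SG agar. Its changes were 1.59 ± 0.11, 1.73 ± 0.11, 1.83 ± 0.11 and 1.36 ± 0.11 in wild-type agar, wild-type liquid, PGAL1-FLO11 agar and PGAL1-FLO11 liquid. NDE1, the main external enzyme, rose in 3 of the comparisons, by 0.71 ± 0.07 in PGAL1-FLO11 on agar and 0.58 ± 0.07 in liquid, and had -0.14 ± 0.07 in wild-type liquid, where it did not pass. NDE2, the second external enzyme, had 0.41 ± 0.13 on wild-type agar, a value that turned to -0.09 (adjusted p = 0.638) after quantile normalization, and 3.92 ± 0.13 in wild-type liquid (limma adjusted p = 5.51e-38).

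Of the 20 assembly or other factors 11 rose in all 4 SG comparisons. SDH6 rose most in wild-type liquid, from 9.77, 9.89 and 9.54 in SD to 12.64, 12.63 and 13.26 in SG, a change of 3.11 ± 0.19. On wild-type agar its 3 SD arrays (8.39, 8.29, 8.65) and 3 SG arrays (10.10, 10.36, 10.47) were apart as well, with a change of 1.87 ± 0.19. COX17 changed by 1.61 ± 0.21 in PGAL1-FLO11 liquid. COX15 and COX18 rose in 0 of the 4 comparisons, ATP10, ATP22 and COX10 in 1 and COX19 and COX11 in 2; the last of these, which delivers copper to complex IV, was named after its values were seen. COX15 fell by 0.47 ± 0.11 in PGAL1-FLO11 liquid, COX18 had -0.36 ± 0.15 in wild-type liquid and COX19 had -0.35 ± 0.13 in PGAL1-FLO11 on agar, all past the threshold. COX18 no longer passed without SD liquid B or C or SG liquid A or C, nor COX19 without SD agar A or B.

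Other genes of the pathway were taken from lists chosen with earlier results of these data known. Electron donors and other assembly factors mostly rose, while HAP1 and the coenzyme Q synthesis genes were mixed and AAC3 fell. HAP4, the regulatory subunit of the HAP complex, rose by 1.42 ± 0.21 and 1.06 ± 0.21 in wild-type agar and liquid and by 0.97 ± 0.21 and 1.37 ± 0.21 in PGAL1-FLO11. HAP1, a heme-responsive activator, had -0.44 ± 0.10, 0.86 ± 0.10, -0.48 ± 0.10 and -0.70 ± 0.10 in the same order, all past the threshold. Of 5 genes for cytochrome c and other electron donors to the chain, 5, 5, 5 and 4 rose; GUT2, the mitochondrial glycerol-3-phosphate dehydrogenase, rose by 2.60 ± 0.20 to 3.83 ± 0.20 and CYC1, the main cytochrome c, by 0.18 ± 0.06 to 0.59 ± 0.06. Of 17 other assembly factors 14, 14, 12 and 16 rose, with CBP4, a complex III assembly factor, at 1.18 ± 0.13 to 2.38 ± 0.13. AAC3, the ADP/ATP carrier used without oxygen, fell in all 4, with changes of -3.86 ± 0.14, -2.21 ± 0.14, -3.81 ± 0.14 and -3.31 ± 0.14. No counts are given for the list of HAP regulators or that of carriers and porin. HAP4, HAP1 and AAC3 therefore do not stand for those lists. Coenzyme Q synthesis genes were mixed: of 9 measured 4, 6, 4 and 0 rose and 2, 1, 1 and 2 fell.

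General stress genes moved with the members in these comparisons. Of 20 such genes 18, 20, 18 and 13 rose, with medians of 2.17, 4.16, 2.70 and 1.15, and of 30 ribosome biogenesis genes 17, 29, 17 and 1 fell, with medians of -0.47, -1.28, -0.44 and 0.28. Over the 29 group means, the correlation of members with the median of the stress list ran from -0.17 for COX10 to 0.94 for STF2. It was 0.92 for STF1, 0.88 for SDH8 and 0.87 for SDH6. Among subunits of complexes II to IV and ATP synthase it ran from 0.22 for ATP19 to 0.82 for SDH4. These values are given as a description. The part of stress genes in the SG results was not tested. In PGAL1-FLO11 liquid ribosome biogenesis genes had 10 rises and 1 fall.

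Wild-type SG liquid differed from wild-type SG agar in 27 of the 59 members, a smaller share than among all genes. In SG, agar against liquid gave 9 rises (15.3%) and 18 falls (30.5%) in wild-type, against 34.9% and 29.7% of all genes. Without wild-type SG liquid C there were 7 and 16. Medians lay between -0.12 and 0.06 in complex II, complex III, complex IV and ATP synthase. NDE2 read 8.33, 8.56 and 8.33 on SG agar and 11.20, 11.38 and 11.19 in SG liquid, a change of -2.85 ± 0.13 (limma adjusted p = 8.79e-30). STF2 had -1.71 ± 0.30, SDH6 -2.53 ± 0.19 and STF1 -1.10 ± 0.20, while ATP10, an assembly factor of ATP synthase, had 1.10 ± 0.28, which rested on wild-type SG liquid C, where it read 5.48, below that array's background limit of 5.72; without that array ATP10 had 0.30 (limma adjusted p = 0.225). General stress genes fell in 19 of 20 cases in this comparison (median -2.46) and ribosome biogenesis genes rose in 30 of 30 (median 1.37); their part was not tested. In PGAL1-FLO11, SG agar against liquid gave 2 rises and 2 falls, against 11.7% and 10% of all genes: SDH6 fell by 1.03 ± 0.19, COX19 had -0.38 ± 0.13, ATP2 0.12 ± 0.04 and ATP16, the delta subunit, 0.14 ± 0.05. These calls lie near the threshold: only 1 member was called without PGAL1-FLO11 SG agar A, B or C or SG liquid A, and 2 without SG liquid B.

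Set against wild-type in SG liquid, PGAL1-FLO11 had 4 members higher (6.78%) and 23 lower (39%), against 33.2% and 32% of all genes. Without wild-type SG liquid C there were 4 and 20. A fit on these groups alone called 0 higher and 16 lower. NDE2 read 8.43 to 9.03 in PGAL1-FLO11 and 11.19 to 11.38 in wild-type, lower by a log2 change of -2.57 ± 0.13. STF2 had -2.11 ± 0.30, SDH6 -1.52 ± 0.19 and STF1 -1.21 ± 0.20. Stress genes were lower too, 18 of 20 with a median of -2.30, and all 30 ribosome biogenesis genes were higher with a median of 1.69; their part in the difference was not tested. On SG agar 2 members differed between the strains, against 1.84% of all genes, NDE2 with 0.50 ± 0.13 and COX11 with -0.32 ± 0.09; 0 were called without wild-type SG agar A or C or PGAL1-FLO11 SG agar A or B, and 1 without wild-type B or PGAL1-FLO11 C. The test of whether the agar effect differed between SG and SD in wild-type passed for 27 members, 9 with a positive and 18 with a negative difference, against 23.4% and 24.3% of all genes, a share of calls near that of all genes. Without wild-type SG liquid C there were 7 positive and 15 negative, and with each array centred on its median 12 and 14. The differences were -3.51 ± 0.18 for NDE2, -1.24 ± 0.27 for SDH6, 0.74 ± 0.19 for COX10 and 0.61 ± 0.10 for NDE1.

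In SD, growth of wild-type on agar against liquid changed the members in both directions. On agar 17 rose and 21 fell, against 30.8% and 21.1% of all genes, with a median of 0.12 against 0.09 for all genes. ATP synthase subunits leaned up, with 8 of 13 rising and 3 falling, and complex II down, with 3 of 4 falling. COX17 had 0.75 ± 0.21, ATP19, a small subunit where synthase dimers form, 0.68 ± 0.12, NDE2 0.65 ± 0.13 and COX13 0.55 ± 0.12. INH1 read 12.22, 12.36 and 12.44 on agar and 13.19, 13.10 and 13.02 in liquid, with no overlap and a change of -0.76 ± 0.11 (limma adjusted p = 1.58e-07). SDH6 had -1.29 ± 0.19, SDH3, a membrane anchor of complex II, -0.48 ± 0.14 and NDE1 -0.42 ± 0.07. STF2 had -0.73 ± 0.30, and no longer passed without agar A or B or liquid B or C (limma adjusted p from 0.0803 to 0.135). General stress genes fell in 9 of 20 cases and rose in 0, and ribosome biogenesis genes rose in 28 of 30; their part in these changes was not tested.

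On SD gelatin against SD liquid 13 members rose and 7 fell, against 15.6% and 21.6% of all genes. SDH6 fell by 1.36 ± 0.19 and STF2 by 1.18 ± 0.30, and ATP19 rose by 0.69 ± 0.12 and COX13 by 0.51 ± 0.12. COX17 had 0.70 ± 0.21, but 0.27 without gelatin A (limma adjusted p = 0.294). General stress genes fell in 12 of 20 cases and ribosome biogenesis genes rose in 23 of 30; their part was not tested. The gelatin arrays were those farthest from their own group: STF2 read 10.45, 8.79 and 9.29 on them. Without gelatin A 16 members were called (10 and 6), without B 34 and without C 32, and a fit on the 2 compared groups alone called 1, so the number of members called on gelatin is not settled.

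SD agar against SD liquid was measured under 10 strain labels that share no array; the arrays labelled PGAL1-FLO11 had FLO11 near its wild-type values, which goes against that label. SDH6 fell in all 10, which 1.65% of all genes did, by 0.59 ± 0.19 in msb2 knockout to 1.97 ± 0.19 in STE11-4. On its 30 agar arrays SDH6 read 7.71 to 9.70 and on its 30 liquid arrays 9.54 to 11.01, and within every strain the agar arrays were below the liquid arrays. In msb2 knockout it had -0.42 without SD agar A (limma adjusted p = 0.103). General stress genes fell in 8 to 20 of 20 cases under 7 of the labels, and in 0 in msb2 knockout, 2 in pRS316 and 4 in MSB2*; their part was not tested. The members below it were singled out after their values were seen. SDH8, which helps assemble the flavoprotein of complex II, fell in 9 strains, COX15 in 8 and STF2 in 7, and none of these 3 rose in any strain. In the other direction ATP14 and ATP16 rose in 9 strains and ATP20, another subunit of synthase dimers, in 8, and none of the 3 fell in any. At least 7 strains gave a rise for 8 members, against 5.12% of all genes, and a fall for 4 members, against 9.01%. The median over strains was 0.23 for the median ATP synthase gene, 0.15 for complex IV, 0.10 for complex III, -0.06 for complex II and -0.35 for the inhibitor and its stabilizers.

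**Figure D4:**
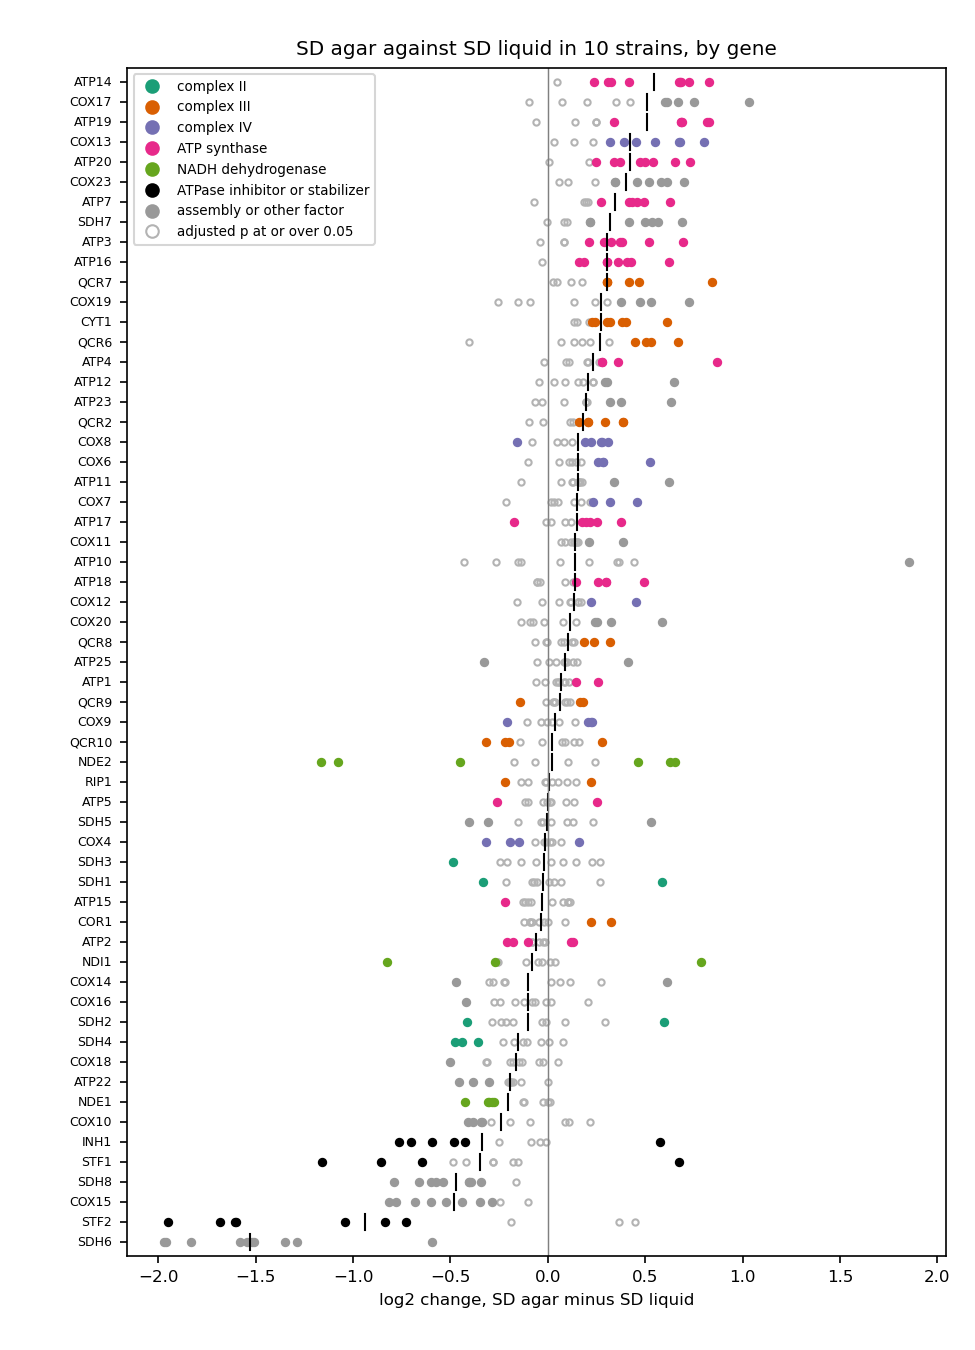
Change in log2 signal from SD liquid to SD agar (x axis) of each of the 59 genes (rows, ordered by the median over strains, shown as a black bar) in 10 strains (points; coloured by role where the adjusted p was under 0.05, open grey otherwise). SDH6 lies left of 0 in every strain, from -1.97 to -0.59, and ATP14 leads the rows by median, at 0.54.

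Strain by strain, the counts on SD agar against SD liquid were as follows. In Kss1K42R 26 members rose and 9 fell (all genes 20.1% and 23.3%), and in tec1 knockout 22 rose and 8 fell (18.2% and 23.3%). ATP19 had 0.82 ± 0.12 in Kss1K42R and 0.69 ± 0.12 in tec1 knockout, and STF2 -1.04 ± 0.30 and -1.61 ± 0.30. In flo11 knockout 5 rose and 10 fell (12.1% and 19.4%; 10 and 10 with arrays centred on their medians), with INH1 at -0.70 ± 0.11 and ATP16 at 0.30 ± 0.05. Under the label PGAL1-FLO11 22 rose and 5 fell (20.8% and 21.7%), with COX19 at 0.73 ± 0.13 and STF1 at -0.86 ± 0.20.

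Among the plasmid strains, pRS313 had 23 rises and 5 falls (5.85% and 14.1%), with NDE2 at 0.63 ± 0.13 and CYT1, cytochrome c1, at 0.38 ± 0.09; 15 members were called without its SD liquid C. STE11-4 had 4 and 11 (15.5% and 16.4%; 7 and 10 with arrays centred on their medians, 2 and 11 with quantile normalization), with NDI1 at -0.83 ± 0.11, and 5 members called in all without STE11-4 SD liquid C. In pRS316 12 rose and 9 fell (18.7% and 23.4%; 16 and 6 with arrays centred on their medians), with NDE2 at -1.08 ± 0.13 and QCR7, a complex III subunit, at 0.47 ± 0.11; 11 were called without its SD agar A and 9 without its SD liquid B. In MSB2* limma called 0 rises (0 also at an unadjusted p) and 7 falls (7.67% and 10.1%), with NDE2 at -1.16 ± 0.13 and INH1 at -0.48 ± 0.11. In msb2 knockout 39 members rose and 2 fell (19.8% and 21.8%), the largest share of rises among the 10 strains in this medium, with a median of 0.41.

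SLAD, set against SD, gave few calls on agar and many in liquid, among the members as among all genes. On agar limma called 0 members as having risen (1 at an unadjusted p) and 1 as having fallen, against 0.899% and 0.881% of all genes: NDE2, with -0.61 ± 0.13 (limma adjusted p = 0.00115). A fit on these groups alone called 12. In liquid 17 rose and 24 fell (28.8% and 40.7% of the members), against 33.3% and 30.2%. NDE2 read 7.45, 7.23 and 7.35 in SD liquid and 11.45, 11.25 and 11.41 in SLAD liquid, a change of 4.03 ± 0.13 (limma adjusted p = 1.36e-38) to a level near the 11.19 to 11.38 of wild-type SG liquid. SDH6 had 1.95 ± 0.19, STF1 1.78 ± 0.20 and STF2 1.72 ± 0.30. COX10, the heme O synthase, read 10.95, 10.80 and 10.92 in SD liquid and 9.06, 9.11 and 9.01 in SLAD liquid, a change of -1.83 ± 0.14. CYT1 had -1.05 ± 0.09, and ATP7, a peripheral stalk subunit, 0.62 ± 0.09. Complex III had 0 rises and 5 falls among 9 genes, and the ATPase inhibitor and stabilizers had 3 rises among 3.

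The other genes of the pathway in SLAD liquid were also divided. Of 17 other assembly factors 1 rose and 12 fell, CYC1 fell by 2.13 ± 0.06, GUT2 rose by 1.43 ± 0.20 and HAP4 by 1.19 ± 0.21. Stress genes rose in 17 of 20 cases with a median of 2.14, and 5 of 30 ribosome biogenesis genes rose and 3 fell; the part of either was not tested. COX5B, the isoform of a complex IV subunit used without oxygen, rose by 3.49 ± 0.26 in SLAD liquid and by 4.34 ± 0.26 in wild-type SG liquid, while COX5A had -0.04 ± 0.05 and -0.03 ± 0.05 and did not pass.

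Within SLAD, agar against liquid gave 25 rises and 24 falls among the members, against 39.3% and 33.6% of all genes. NDE2 had -3.99 ± 0.13, SDH6 -3.37 ± 0.19 and STF2 -2.34 ± 0.30. COX17 read 11.23, 11.26 and 11.30 on SLAD agar and 9.13, 8.87 and 8.88 in SLAD liquid, with a change of 2.30 ± 0.21, and its SLAD liquid arrays were below those of every other group of wild-type at 6 h. ATP19 had 1.33 ± 0.12 and QCR6 1.14 ± 0.17. SDH7, a partner of SDH6 in maturing the iron-sulfur subunit and named after its values were seen, had 1.78 ± 0.08, so both partners changed in opposite directions. General stress genes fell in 19 of 20 cases on SLAD agar against liquid (median -2.59) and ribosome biogenesis genes rose in 25 of 30; their part was not tested. The difference of the agar effect between SLAD and SD passed for 33 members, 17 positive and 16 negative, against 24.6% and 26.7% of all genes, again a share near that of all genes, with -4.64 ± 0.18 for NDE2, -2.08 ± 0.27 for SDH6 and 1.58 ± 0.19 for COX10. These comparisons share the wild-type SD arrays with those above.

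**Figure D5:**
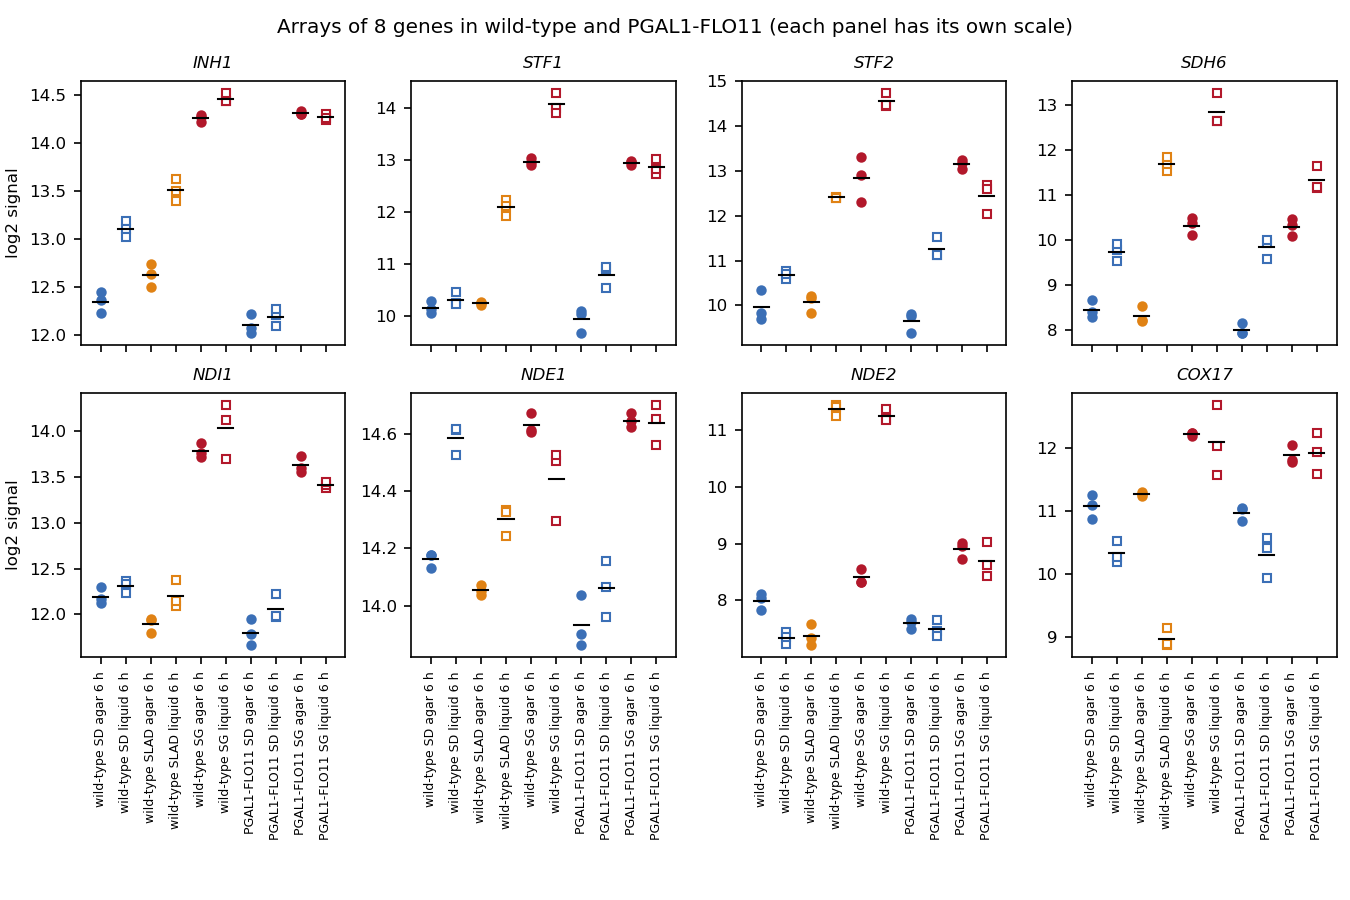
Log2 signal on each array of 8 genes (panels, each with its own scale) in wild-type and PGAL1-FLO11 at 6 h in SD (blue), SLAD (orange) and SG (red), on agar (filled circles) and in liquid (open squares), with group means as bars. NDE2 reads above 11 in wild-type SLAD liquid and wild-type SG liquid and at most 9.03 in the other groups shown, and COX17 is lowest in wild-type SLAD liquid.

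Time in SD was compared in wild-type. On agar 21 members rose from 0 h to 6 h and 4 fell, against 10.2% and 11.9% of all genes; without wild-type SD agar 6 h B 16 rose and 0 fell. SDH2 had 0.61 ± 0.11, NDE2 0.59 ± 0.11, NDI1 0.58 ± 0.10 and SDH6 -0.60 ± 0.16 (-0.52 and limma adjusted p = 0.0504 without 6 h B). ATP10 had 0.66 ± 0.24, and no longer passed without 0 h A or F or without any one of the 6 h arrays (limma adjusted p from 0.0597 to 0.182). In liquid 18 rose and 21 fell, against 20.3% and 35.5%; with each array centred on its median 26 rose and 13 fell, so the balance of rises and falls depends on the scaling. General stress genes fell in 5 of 20 cases on agar and in 14 in liquid; their part was not tested. STF2 read 12.50, 13.26 and 13.05 at 0 h and 10.58, 10.76 and 10.71 at 6 h, a fall of 2.25 ± 0.30 on the log2 scale. INH1 went the other way, with 1.12 ± 0.11, as did SDH3 with 0.82 ± 0.14, while STF1 had -1.13 ± 0.20. The stabilizers and the inhibitor they act with therefore changed in opposite directions between 0 h and 6 h in SD liquid.

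On SD agar up to 6 members were called in the comparisons between strains other than those added later. The msb2 knockout set against wild-type, added after the data were seen and described further on, had 32. Against wild-type, Kss1K42R had 6 members called (5.82% of all genes), tec1 knockout 5 (6.68%), flo11 knockout 0 (1.05%) and the arrays labelled PGAL1-FLO11, which had FLO11 near its wild-type values, 0 (1.43%). At an unadjusted p, limma called 5 members in flo11 knockout and 7 in PGAL1-FLO11. Fits on the compared groups alone called 13 members in Kss1K42R, 12 in tec1 knockout and 2 in flo11 knockout. ATP2 read 14.47, 14.43 and 14.40 in Kss1K42R, 14.44, 14.53 and 14.44 in tec1 knockout and 14.87, 14.87 and 14.88 in wild-type, with changes of -0.44 ± 0.04 (limma adjusted p = 1.07e-11) and -0.40 ± 0.04 (limma adjusted p = 2.1e-10). COR1, a core subunit of complex III, had -0.31 ± 0.06 and -0.26 ± 0.06, and NDE1 -0.26 ± 0.07 and -0.24 ± 0.07; both comparisons share the wild-type arrays. Against pRS313, STE11-4 had 3 members called (3.67%): SDH1 with -0.35 ± 0.11, INH1 with 0.45 ± 0.11 and NDE2 with 0.48 ± 0.13. Against pRS316, MSB2* had 3 (9.58%): SDH8 with 0.36 ± 0.11, INH1 with 0.58 ± 0.11 and NDE2 with 0.63 ± 0.13. The msb2 knockout against pRS316 had 1 (12.1%), NDE2 with -0.62 ± 0.13. Single arrays moved these small counts: Kss1K42R had 3 without wild-type SD agar A or B or its own C, and tec1 knockout had 3 without wild-type A or B or its own A and 2 without its own C. The flo11 knockout had 1 without wild-type A, PGAL1-FLO11 1 without its own B, and msb2 knockout against pRS316 2 without its own A, B or C. STE11-4 had 1 without pRS313 A or its own B and 0 without its own A. Among the members named here, NDE1 lost its call in Kss1K42R and tec1 knockout, COR1 in tec1 knockout and SDH8 in MSB2* without at least 1 of the arrays, while ATP2 kept its call in both.

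The groups carrying pRS316 had higher levels of the members than those carrying pRS313, a comparison added after the data were seen. On SD agar 27 members were higher and 2 lower in pRS316, against 16.1% and 10.7% of all genes, and 44 were called with the replicate block. In SD liquid 37 were higher and 0 lower, against 9.69% and 5.52% (0 lower also at an unadjusted p by limma). INH1 read 12.03, 11.95 and 11.96 on pRS313 agar and 13.12, 13.22 and 13.15 on pRS316 agar, and 12.06, 12.04 and 11.95 against 13.88, 13.71 and 13.69 in liquid. No arrays overlapped, and the differences were 1.18 ± 0.11 and 1.74 ± 0.11 (limma adjusted p = 4.77e-20). NDI1 had 0.83 ± 0.11 and 0.90 ± 0.11, SDH2 0.65 ± 0.12 and 1.16 ± 0.12, and STF2 1.64 ± 0.30 on agar. The 2 members lower on agar were NDE2, with -1.05, and COX19, with -0.55. In liquid all 3 NADH dehydrogenases, NDE2 among them, were higher in pRS316. General stress genes were higher in 20 of 20 cases on agar (median 2.04) and 15 of 20 in liquid (median 1.16); their part was not tested. These groups differ both by the plasmid of their label and by culture, and in liquid also by the b in the pRS313 titles. These cannot be told apart.

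In msb2 knockout 39 members rose and 2 fell on SD agar against SD liquid (19.8% and 21.8% of all genes). The comparisons in liquid, those with wild-type on both substrates and the difference of agar effects were likewise added after the data were seen. On agar against pRS316, a comparison not added later, limma called 0 higher (1 at an unadjusted p) and 1 lower. Agar arrays A and C of msb2 knockout lay 0.413 and 0.419 log2 from the others of their group. In liquid, against pRS316, limma called 0 higher (0 also at an unadjusted p) and 45 lower (3.6% and 11% of all genes), with INH1 at -1.20 ± 0.11, STF1 at -1.24 ± 0.20, SDH2 at -1.03 ± 0.12 and NDE2 at -1.25 ± 0.13. Against wild-type, 3 were higher and 23 lower in liquid (19.9% and 7.71%), and on agar 30 were higher and 2 lower (17.7% and 13.9%); on agar 17 were called without wild-type SD agar A, 20 without msb2 knockout SD agar B, 14 without C and 42 without A. The agar effect in msb2 knockout minus that in pRS316 passed for 30 members, all positive, against 5.07% and 2.64% of all genes, and for 15 without pRS316 SD agar A, 15 without msb2 knockout SD agar C and 17 without pRS316 SD liquid A. ATP10 was not above the background limit on the 3 arrays of msb2 knockout liquid (5.85, 5.60 and 6.01) and read 7.59, 7.78 and 7.64 on agar, at least 3.14-fold higher (limma adjusted p = 2.16e-07). INH1 read 12.65, 12.47 and 12.55 in liquid and 12.84, 13.14 and 13.42 on agar, so the groups were apart, with a change of 0.57 ± 0.11. General stress genes in this strain rose on agar in 15 of 20 cases (median 0.90) and fell in 0; their part was not tested.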

How the data were processed

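The deposited values are log2 signals, made with RMA per the submitters' processing notes; no version, setting or genome build is stated in the labels or file headers, and no coordinates are printed. Probe sets were named through the platform annotation, and the brightest was used for the 47 genes with several; each member had 1. Groups came from the labels. The model (lmFit and eBayes of limma 3.58.1, R 4.3.3) held 1 mean for each group and took all 90 arrays (61 residual and 2.88 prior degrees of freedom), and its 2-sided p-values were adjusted (Benjamini-Hochberg, 5449 genes) within each of 39 comparisons; 6 of these were added after the data were seen. The median spread of a gene within groups was 0.156 log2, the number of arrays limits the precision, and 3 arrays against 3 allow no exact test under 0.05. The analysis was tested on simulated data.

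Probe sets naming genes that the table of S. cerevisiae genes does not hold set the background limit, the 95th percentile of their signals on each array. A gene under this limit on every array of a group has a lower bound as its fold. The smallest difference between any 2 arrays was 0.157 log2 (root mean square), so no array was a duplicate. Same-letter arrays deviated together (every correlation over 0.1) in 2 of 36 comparisons, flo11 knockout SD agar against liquid and pRS316 against pRS313 on SD agar; the letters' meaning is not stated.

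The members and all gene lists were chosen with earlier results of these data known. Named members were drawn, per comparison, from those that passed, up to 10. They had the largest and the smallest or opposite change within a role. The NADH dehydrogenases, INH1, STF1 and STF2 were also drawn on, but not every one that passed is named in each comparison. Across groups the 5 widest, 5 narrowest and 5 least correlated were named. Lists were cytochrome c and electron donors, coenzyme Q synthesis, other assembly factors, HAP regulators, carriers and porin, the COX5A and COX5B isoforms, general stress and ribosome biogenesis; mitochondrially encoded genes were not analysed here. Alternatives were quantile normalization, centring on array medians, leaving out the dimmest genes, the mean of probe sets, a fit on the compared groups, the same with a replicate block, and leaving out each array.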

Additional observations from a re-analysis of the deposited data

Results flagged for a closer look

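In the group of 6 arrays of wild-type SD agar at 0 h, 1 array lay far from the others for 4 genes. QCR10, a complex III subunit, read 13.77 on replicate A and 13.57 to 13.63 on the others (gap over range 0.72). ATP17, an ATP synthase subunit, read 12.97 on replicate D and 13.18 to 13.28 on the others (0.687). QCR9 read 13.93 on replicate D and 14.01 to 14.05 on the others (0.676), and ATP22 read 9.91 on replicate D and 10.15 to 10.28 on the others (0.632). Chance gives about 1 in 20, and 60 sets of values were looked at, the level of all members among them.

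Differences between agar effects were tested 3 times, and in the first 2 tests the share of members that passed was near that of all genes. The agar effect in wild-type differed between SG and SD for 27 members and between SLAD and SD for 33, against 23.4% and 24.6% of all genes with a positive difference and 24.3% and 26.7% with a negative one. The agar effect differed between msb2 knockout and pRS316 for 30 members, against 5.07% with a positive and 2.64% with a negative difference among all genes, a comparison added after the data were seen and one that the marker gene of the plasmid does not match.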

How the results depend on the processing

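In 39 comparisons the count of members called stayed within 1.5 times under quantile normalization in 38, centring on the median in 38, leaving out the dimmest genes in 36, the mean of probe sets in 39, the fit on the compared groups in 27 and that fit with the replicate block in 27. With quantile normalization PGAL1-FLO11 against wild-type on SD agar had 1 call, and NDE2 in wild-type SG against SD agar turned from 0.41 to -0.088 (adjusted p = 0.638). With median centring MSB2* agar against liquid had 4. Without the dimmest genes SLAD against SD agar had 0, msb2 knockout against pRS316 on agar 0 and PGAL1-FLO11 against wild-type on SG agar 1. The fit on the compared groups gave 1 for gelatin, 12 for SLAD against SD agar, 44 for pRS313, 5 for STE11-4 and 13 for MSB2* agar against liquid; on agar 13 for Kss1K42R, 12 for tec1 knockout, 2 for flo11 knockout, 14 for msb2 knockout against wild-type and 5 for STE11-4 against pRS313; 16 for PGAL1-FLO11 against wild-type in SG liquid and 19 for the msb2 knockout difference of agar effects. With the replicate block these were 0 for gelatin, 6 for SLAD, 2 for STE11-4 agar against liquid, 13 for Kss1K42R, 1 for flo11 knockout, 14 and 0 for msb2 knockout against wild-type and pRS316 on agar, 5 for STE11-4 against pRS313, 0 and 12 for PGAL1-FLO11 against wild-type on SG agar and in SG liquid, 44 for pRS316 against pRS313 on agar and 12 for the msb2 knockout difference; every other count stayed within 1.5 times. The causes were not tested.

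Leaving out each array in turn gave 16 to 34 calls for gelatin, 16 to 25 for 6 h against 0 h on agar, and, for agar against liquid, 15 to 21 for pRS313, 5 to 19 for STE11-4, 9 to 21 for pRS316 and 1 to 3 for PGAL1-FLO11 in SG. On SD agar it gave 3 to 6 for Kss1K42R, 2 to 4 for tec1 knockout, 0 to 1 for flo11 knockout, 1 to 2 for msb2 knockout against pRS316, 0 to 3 for STE11-4 and 0 to 1 for PGAL1-FLO11, and 0 to 1 for PGAL1-FLO11 on SG agar. For msb2 knockout against wild-type on agar it gave 14 to 42, the highest without msb2 knockout SD agar A. The msb2 knockout difference ran from 15 to 40. Of 3883 repeats of 307 named changes, 3463 kept their direction and side of the threshold, 419 no longer passed and 1 reversed. With a mean over members in place of the median, the level of 20 of 29 groups moved by more than its spread between arrays.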
